A study of Mus musculus with 8 samples.

Results

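The comparison described here sets mouse embryonic stem cells labelled as having a nucleus-directed AGO2 as their only Argonaute against cells labelled as having AGO2 or all Argonautes without that signal. Each value is the log2 fold of NLS over noDox minus the log2 fold of DOX/E14 over noDox for 1 gene, matched on gene symbol and locus between the deposited tables. Since noDox divides both folds, the difference is the log2 ratio of NLS to DOX/E14 apart from the scaling of the tables. A gene was included when it reached at least 1 RPKM (reads per kilobase of transcript, scaled to mapped reads) in NLS or in DOX/E14, which left 13050 of 24279 genes. Of these, 11768 had a finite fold and a test in both tables.

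The study held 8 RNA sequencing libraries in 4 groups of 2, all taken on day 6 after withdrawal of leukemia inhibitory factor (LIF), the cytokine that keeps these cells undifferentiated. NLS is labelled as cells without Argonaute 1 to 4 that express AGO2 carrying a nuclear localization signal. DOX is labelled as the same knockout expressing AGO2 alone under doxycycline, E14 as wild type, and noDox as the knockout itself. Every group, E14 and noDox included, carries the label of a line with doxycycline-inducible HA-Flag-AGO2 and the same protocol of 2.5 µg/ml doxycycline daily at passages 8 to 15. How many clones stand behind a group is not given in the sources used here.

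The deposited DOX and E14 tables were the same in 24279 of 24279 lines, so the second group is the one labelled DOX or E14, written DOX/E14 below. Each group has 1 pooled RPKM value, and the depth and the spread between libraries are unknown. Errors are the standard errors (SE) that the deposited test statistics imply. RPKM summed to 766099 in NLS, 724359 in DOX/E14 and 1.2552e+06 in noDox, of which short RNA genes held 47.4% in NLS, 41.8% in DOX/E14 and 68.7% in noDox. All 8 stem cell markers stood at 1 RPKM or more in NLS and in DOX/E14. They summed to 3517 RPKM in NLS and 1785 in DOX/E14, with Dppa5a alone at 1939 RPKM in NLS and 645 in DOX/E14. Pou5f1, Sall4 and Utf1 were at 474, 108 and 119.9 RPKM in NLS against 542, 128 and 207 RPKM in DOX/E14. Of the markers 4 (Dppa5a, Esrrb, Nanog and Zfp42) also belong to the naive pluripotency list described below.

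Argonaute proteins hold a microRNA of about the length printed below and use its bases 2 to 8, the seed, to find complementary sites, most often in the 3′ untranslated region (3′ UTR) of messenger RNAs. In the cytoplasm they recruit TNRC6 scaffolds and deadenylases, which repress translation and shorten the life of the message. Mouse embryonic stem cells are rich in microRNAs of the miR-290, miR-302 and miR-17 to miR-92 clusters, while let-7 accumulates during differentiation and is held back by LIN28 proteins.

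The mature sequences below come from RefSeq on GRCm38.p6, with the seed in capitals, and are shown because their seeds sort the members later in the text. The first 5 share 1 seed although they come from clusters on chromosomes 7 and 3. The seed of miR-17 and miR-20a, from chromosome 14, is that seed moved by 1 base.
mmu-miR-294-3p: aAAGUGCUucccuuuugugugu
mmu-miR-291a-3p: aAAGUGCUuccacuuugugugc
mmu-miR-295-3p: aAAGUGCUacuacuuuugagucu
mmu-miR-302b-3p: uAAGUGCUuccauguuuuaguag
mmu-miR-302d-3p: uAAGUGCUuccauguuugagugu
mmu-miR-17-5p: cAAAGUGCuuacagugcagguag
mmu-miR-20a-5p: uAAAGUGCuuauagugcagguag
mmu-miR-92a-3p: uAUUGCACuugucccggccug
mmu-let-7g-5p: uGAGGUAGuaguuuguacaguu
mmu-let-7i-5p: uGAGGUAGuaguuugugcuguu

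Sites complementary to these seeds were read from GENCODE M21 transcripts (GRCm38), with the seed match in capitals and 11 bases on either side. The genes printed were picked among called members of the lists of known targets described below. The first 4 genes were higher in NLS and hold the miR-290/miR-302 match AGCACTT. The last 3 were lower in NLS and hold the let-7 match CTACCTC. Other genes of these lists hold a match and were not called, among them Cdkn1a and Lats2 for miR-290/miR-302 and Hmga2 and Trim71 for let-7.
Lefty2, chr1:180897906-180897934, plus strand: cacccagtttaAGCACTTacatgggtaaa
Ei24, chr9:36779878-36779906, minus strand: gctgtttttttAGCACTTgccagctcctg
Irf2, chr8:46846653-46846681, plus strand: ccttatcttgaAGCACTTacaataggcct
Ddhd1, chr14:45595358-45595386, minus strand: tttaatttaaaAGCACTTtattttatttt
Lin28a, chr4:134005179-134005207, minus strand: agcctgttgaaCTACCTCatttttgccga
Lin28b, chr10:45381012-45381040, minus strand: gggcgggaagtCTACCTCatgcaagcaca
Igf2bp1, chr11:95961768-95961796, minus strand: tgcgaagtaaaCTACCTCaaggtgtgaag

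Genes of naive pluripotency, known miR-290/miR-302 targets and Argonaute partners were among those higher in NLS than in DOX/E14, while both Lin28 genes, both de novo DNA methyltransferase genes and genes of lipid synthesis were among those lower. The difference passed an adjusted p of 0.05 (z test on both implied SEs, Benjamini-Hochberg over 11907 genes) for 1544 members, or 13.0% of the genes tested. Of these 1165 (9.78%) were higher in NLS and 379 (3.18%) lower. The counts called in each list below stand beside these shares, and several lists lie near them. The median difference over tested members was 0.007, with quartiles at −0.57 and 0.70. Over the 10989 tested members with at least 1 RPKM in both groups the median was −0.05, with quartiles at −0.59 and 0.56, so the upper quartile lay lower there. At 1 RPKM or more in NLS only there were 1300 members, and in DOX/E14 only 608. In RNA from a culture, fewer cells of a type and less RNA per cell cannot be told apart.

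Among members at least 1 log2 unit higher in NLS, 1165 of 2154 (54.1%) passed, and among those at least 1 unit lower, 378 of 1343 (28.1%) passed. The median SE of the difference was 0.56 among the higher and 0.61 among the lower of these genes. The smallest called difference was 1.07 upward and 0.86 downward, so smaller differences were not detectable here. Adding 1 RPKM to every value before the log, which shrinks the differences of low genes, left 889 of the 1544 calls, and is named below where it ended the call of a gene described. The SEs were kept as without the added RPKM, here and with 0.1 RPKM added, so these settings could hardly add calls. A call that ended this way was judged by a smaller difference against an SE that did not shrink. When the SE implied by the deposited p-values was used instead, 62.2% of the calls were higher in NLS, against 75.5% as reported.

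Set beside noDox, the genes called higher in NLS had a median log2 fold of −0.17 in the NLS table and −2.11 in the DOX/E14 table. The genes called lower had medians of −0.01 in the NLS table and 1.52 in the DOX/E14 table. In the authors' deposited tests, 8.36% of genes tested passed q < 0.05 for NLS over noDox and 55.5% for DOX/E14 over noDox. Both folds share the noDox libraries. At the edge of the inclusion rule, Mpp3 was the lowest member with 0.511 RPKM in NLS and 1.00038 in DOX/E14, and Cerk fell just short with 0.803 RPKM in NLS and 0.999736 in DOX/E14.

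The targeted genes come first. Ago2 (chr15:73095844-73184935) stood at 35.7 RPKM in NLS and 32.6 in DOX/E14, with 26.1 in noDox. The difference of 0.09 (SE 0.39) did not pass, and a gene-level value does not part a transgene from the endogenous gene or deleted exons from those that remain. Ago1 was at 0.861 RPKM in NLS and 16.7 in DOX/E14, with 0.0159 in noDox, and was not tested in both tables. This Ago1 level goes against the label DOX, which names AGO2 alone, so every difference is set against a group whose name is unsettled. The signs themselves do not depend on that name. Ago3 was the one Argonaute that passed, with 14.5 RPKM in NLS and 3.001 in DOX/E14 beside 7.56 in noDox, a difference of 2.24 (SE 0.43). The NLS and noDox levels of Ago3 stand beside labels that name all 4 genes as knocked out. Ago4 reached 0.205 RPKM in NLS and 0.0798 in DOX/E14 and was no member.

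Partners of Argonaute in silencing were partly higher in NLS. Of 24 tested genes of microRNA biogenesis and silencing, 4 were called higher and none lower, and the list's median of −0.02 lay beside the 0.007 of all members. The 4 were all silencing factors, but other silencing and decay factors of the list did not pass, among them Ddx6, Cnot1, Pan2 and Dcp2. Ddx6 was at 51.5 RPKM in NLS and 49.6 in DOX/E14. Of the 24 genes 12 had values above 0. Mov10, an RNA helicase that binds Argonaute, was at 138 RPKM in NLS and 24.98 in DOX/E14, with 301 in noDox, a difference of 2.43 (SE 0.42). Tnrc6b, a GW182 scaffold that links Argonaute to deadenylases, was at 24.2 RPKM in NLS and 5.70 in DOX/E14 (difference 2.05, SE 0.40). Its paralog Tnrc6a was at 35.5 RPKM in NLS and 14.7 in DOX/E14, a smaller difference of 1.24 (SE 0.39). The deadenylase Cnot6l was at 10.4 RPKM in NLS and 4.63 in DOX/E14, and its call ended when 0.1 RPKM was added to every value. The processing enzymes did not pass, with Dicer1 at 25.2 RPKM in NLS and 23.9 in DOX/E14 and Drosha at 55.9 RPKM in NLS and 74.4 in DOX/E14.

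Naive pluripotency genes, which mark the ground state of the preimplantation epiblast, were the list with the most calls. Of 20 tested members 13 were higher in NLS, 7 did not pass and none was lower, and the list's median difference was 1.42. The median log2 fold over noDox was −0.06 for NLS and −1.51 for DOX/E14. Jam2, a junctional adhesion molecule (chr16:84774123-84825928), was at 97.4 RPKM in NLS and 3.06 in DOX/E14, with 88.5 in noDox. Its difference of 4.95 (SE 0.43) was the largest in the list, and the NLS level lay beside that of noDox. Tbx3, a T-box regulator of the naive state, was at 57.2 RPKM in NLS and 2.80 in DOX/E14 (difference 4.32, SE 0.43). Klf4, a Krüppel-like factor downstream of LIF, was at 51.6 RPKM in NLS and 3.19 in DOX/E14 (difference 3.98, SE 0.45).

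Within that list the factors differed in how NLS compared with noDox. Prdm14, which restrains DNA methylation and FGF signalling, was at 14.2 RPKM in NLS and 1.24 in DOX/E14, below the 34.1 RPKM of noDox in both (difference 3.48, SE 0.54). Tfcp2l1, a transcription factor downstream of STAT3, was at 95.3 RPKM in NLS and 14.01 in DOX/E14, with 99.5 in noDox. The orphan nuclear receptor Esrrb was at 178 RPKM in NLS and 33.7 in DOX/E14, with 189 in noDox (difference 2.37, SE 0.42). Nanog was not tested in both tables and stood at 287 RPKM in NLS and 69.3 in DOX/E14, with 431 in noDox. Dppa3, a maternal-effect gene of the same list, went the other way in value, with 1.51 RPKM in NLS and 8.41 in DOX/E14, and did not pass.

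Most general pluripotency factors did not pass the test. Of 11 tested, 1 was higher, 1 lower and 9 not called, with a median difference of −0.12. Sox2, the high-mobility-group factor of the core network, was the one higher, at 154 RPKM in NLS and 53.2 in DOX/E14 (difference 1.498, SE 0.40). Pou5f1, which encodes OCT4, was at 474 RPKM in NLS and 542 in DOX/E14 and did not pass. Lin28a was the one lower and is described with the let-7 targets.

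Formative and primed epiblast genes, which follow the naive state after implantation, leaned the other way. Of 16 tested, 2 were lower in NLS, 1 higher and 13 not called, and the median difference was −0.45. Dnmt3b, a de novo DNA methyltransferase (chr2:153649450-153687730), was at 30.8 RPKM in NLS and 322 in DOX/E14, with 19.3 in noDox. Its difference was −3.42 (SE 0.42), and NLS stood above noDox by a log2 fold of 0.64 (q = 0.0485 in the authors' deposited table). The related enzyme Dnmt3a was at 11.98 RPKM in NLS and 32.8 in DOX/E14 (difference −1.49, SE 0.40). Foxd3, a forkhead factor of the epiblast, was the one higher, at 10.9 RPKM in NLS and 3.35 in DOX/E14, and its call ended with 1 RPKM added.

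**Figure D1:**
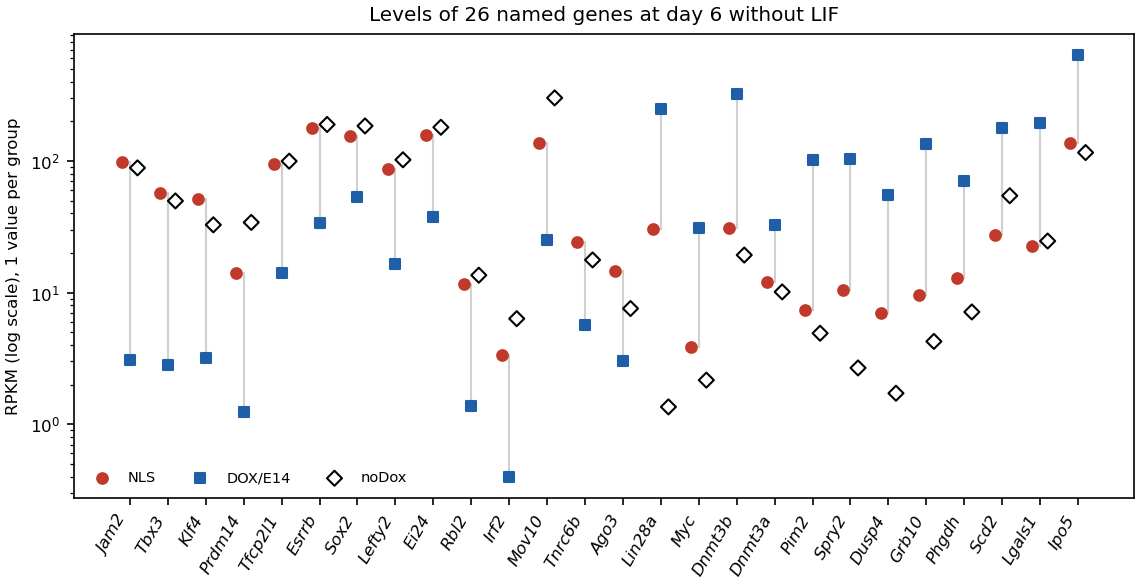
RPKM on a log scale of 26 named genes, picked to span the groups described, in NLS (red circles), DOX/E14 (blue squares) and noDox (open diamonds), with 1 pooled value per group and no error bars. From Jam2 to Ago3 the NLS value lies above DOX/E14 and from Lin28a to Ipo5 below it, and for Jam2, Tbx3, Esrrb, Dnmt3a and Ipo5 the NLS and noDox symbols nearly meet.

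Known miR-290/miR-302 targets were higher in NLS by a median of 1.22 over 19 tested genes, of which 9 were called higher, none lower and 10 not called. Over noDox the list's median log2 fold was −0.26 in NLS and −1.81 in DOX/E14. Lefty2, a Nodal antagonist whose site is printed above, was at 87.2 RPKM in NLS and 16.5 in DOX/E14, with 102 in noDox (difference 2.36, SE 0.40). Ei24, a p53-induced protein of the endoplasmic reticulum, was at 159 RPKM in NLS and 37.8 in DOX/E14 (difference 2.03, SE 0.40). Rbl2, the retinoblastoma relative p130, was at 11.6 RPKM in NLS and 1.38 in DOX/E14 (difference 3.03, SE 0.73). These 3 genes stood in NLS within a log2 fold of 0.26 of noDox.

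Smaller or less certain differences filled the rest of that list. Irf2, an interferon regulatory factor, was at 3.33 RPKM in NLS and 0.396 in DOX/E14 (difference 3.03, SE 0.84), and its call ended with 1 RPKM added. Ddhd1, a phospholipase, was at 11.8 RPKM in NLS and 3.06 in DOX/E14, and Pkd1, which encodes polycystin 1, at 21.1 RPKM in NLS and 3.87 in DOX/E14. The 3′ UTR of Pkd1 held no miR-290/miR-302 match. Cdkn1a, the cell cycle inhibitor p21, held 2 matches and was at 64.8 RPKM in NLS and 32.6 in DOX/E14 without passing. Akt1, a survival kinase with 1 match, stood at 13.7 RPKM in NLS and 29.6 in DOX/E14, also not called.

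Known let-7 targets were lower in NLS where they differed. Of 28 tested, 5 were lower, none higher and 23 not called, with a median difference of −0.61. Lin28a, the RNA-binding protein that blocks let-7 maturation, was at 30.5 RPKM in NLS and 248 in DOX/E14, with 1.35 in noDox. The difference was −3.06 (SE 0.63), and the NLS level lay between those of noDox and DOX/E14. Myc, the growth-promoting transcription factor, was at 3.83 RPKM in NLS and 30.9 in DOX/E14 (difference −3.05, SE 0.67). Its 3′ UTR held no 7-base let-7 match.

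Lin28b, the paralog of Lin28a with 4 matches, was at 5.89 RPKM in NLS and 16.4 in DOX/E14 (difference −1.52, SE 0.45). Igf2bp1, an oncofetal mRNA-binding protein also with 4 matches, was at 84.3 RPKM in NLS and 201 in DOX/E14. Ccnd1, which encodes cyclin D1, was at 34.9 RPKM in NLS and 73.2 in DOX/E14, and its call ended with the direct ratio of the groups. Hmga2 and Trim71, textbook let-7 targets with 4 matches each, did not pass. Hmga2 was at 3.36 RPKM in NLS and 5.04 in DOX/E14, and Trim71 at 75.7 RPKM in NLS and 76.3 in DOX/E14.

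The seeds printed above were then counted in all members, using for each gene the protein-coding transcript with the longest 3′ UTR in GENCODE M21. Of 11768 tested members 10850 (92.2%) had such a 3′ UTR. The motifs, read on the transcript strand, were AGCACTT for miR-290/miR-302, GCACTTT for miR-17/miR-20, GTGCAAT for miR-92 and CTACCTC for let-7. AGCACTT occurred in 14.6% of all 20981 annotated 3′ UTRs and in 17.6% of those of the members, GCACTTT in 11.7% of all, GTGCAAT in 6.55% and CTACCTC in 8.96%. The first motif shares its last 6 letters with the first 6 of the second, so a site AGCACTTT counts for both. A match is a string of letters and not shown to be a working site.

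Members with more matches to the stem cell families were higher in NLS. With no miR-290/miR-302 match the median difference was −0.05 (8942 genes), with 1 match 0.22 (1540 genes) and with 2 or more 0.42 (368 genes). For miR-17/miR-20 the medians were −0.06, 0.30 and 0.62 over 9255, 1347 and 248 genes, and for miR-92 they were −0.03, 0.33 and 0.62 over 10037, 737 and 76 genes. Genes called higher made up 9.04% of the members without a miR-290/miR-302 match, 14.6% with 1 match and 19.8% with 2 or more. Genes called lower made up 3.65%, 1.88% and 1.63% of the same classes. For let-7 the medians were −0.01, 0.05 and 0.11 over 9685, 1023 and 142 genes.

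For these families the shift lay in the DOX/E14 values, as it mostly did for 3′ UTR length and for miR-142, described below. Members with 2 or more miR-17/miR-20 matches had a median log2 fold over noDox of 0.04 in NLS and −0.53 in DOX/E14, and for miR-92 these were 0.02 in NLS and −0.61 in DOX/E14. In the NLS table the classes of these 2 families and of miR-290/miR-302 all had medians between −0.03 and 0.04. Members with both a miR-290/miR-302 and a miR-17/miR-20 match (894 genes) had a median difference of 0.41. Those with miR-17/miR-20 alone (701 genes) had 0.27, those with miR-290/miR-302 alone (1014 genes) 0.11 and those with neither (8241 genes) −0.08.

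Length of the 3′ UTR moved with the difference as well. Over 5 equal bins of length, from the shortest to the longest, the median difference was −0.21, −0.09, −0.003, 0.06 and 0.27, at median lengths of 218, 597, 1144, 1958.5 and 3684 bases. The share called higher in NLS was 6.16% in the shortest bin and 15.2% in the longest, and the share called lower was 3.49% in the shortest and 2.40% in the longest. In the longest bin the median log2 folds over noDox were 0.05 in NLS and −0.20 in DOX/E14, and in the shortest −0.09 in NLS and 0.12 in DOX/E14. Within a bin, the median of members with a match minus that of members without was taken for each family. Its median over the 5 bins was 0.18 for miR-290/miR-302, against 0.30 without regard to length. For miR-17/miR-20 it was 0.32, against 0.39 without regard to length, and for miR-92 0.25, against 0.39. For let-7 it was −0.05, against 0.07, so the sign for let-7 turned once length was held.

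The families miR-17/miR-20 and miR-92 had been added after the data were seen, and so were 3 families of other cell types that give a scale for these values. Their sequences, with the seed in capitals as above, are those of the neural miR-9 and the blood cell miR-142 and miR-223.
mmu-miR-9-5p: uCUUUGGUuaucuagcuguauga
mmu-miR-142a-3p: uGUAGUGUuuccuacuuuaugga
mmu-miR-223-3p: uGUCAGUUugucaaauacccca

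The within-length value was 0.05 for miR-9 (motif ACCAAAG), 0.13 for miR-142 (ACACTAC) and 0.01 for miR-223 (AACTGAC). Without regard to length these were 0.17, 0.24 and 0.10. By this median over bins all 3 lay below miR-290/miR-302, miR-17/miR-20 and miR-92, although miR-142 came close to miR-290/miR-302. The order did not hold in every bin. In the longest bin, with 919 of the 1908 members that hold a miR-290/miR-302 match, that family stood at 0.08. There miR-9 (0.12) and miR-142 (0.13) lay above it. The 73 members with 2 or more miR-142 matches had a median of 0.59. Over noDox, members with 2 or more miR-142 matches had median log2 folds of 0.04 in NLS and −0.43 in DOX/E14. For 2 or more miR-9 matches these were 0.04 in NLS and −0.13 in DOX/E14, and for miR-223 0.14 in NLS and −0.06 in DOX/E14. No test was run on any of these classes. Base composition and shared sites of the 3′ UTRs were not held equal, and their part was not tested.

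**Figure D2:**
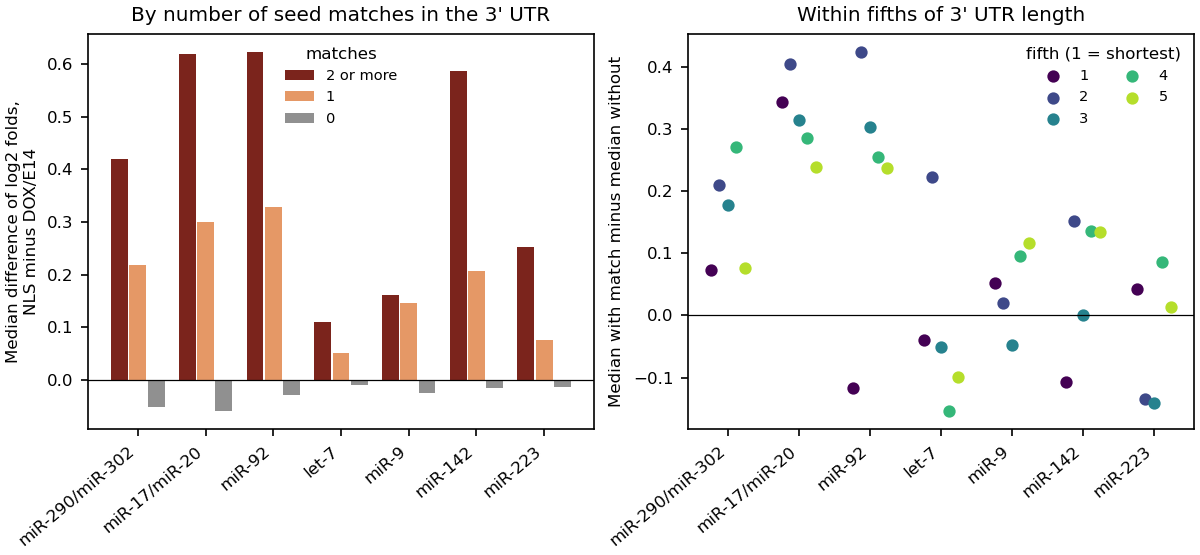
Left, the median difference (NLS minus DOX/E14, log2) of members with 2 or more, 1 or 0 seed matches in the 3′ UTR, as bars from 0 for 7 microRNA families. Right, the median of members with a match minus the median without, in each bin of 3′ UTR length from 1 (shortest) to 5, where miR-17/miR-20 lies above 0 in all 5 bins while let-7 lies below 0 in 4 of 5.

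In the LIF to STAT3 pathway 4 of 15 tested genes were higher and 2 lower, with a median of 0.13. The receptor subunits were higher in NLS, Il6st (gp130) with 43.4 RPKM in NLS and 14.3 in DOX/E14, and Lifr with 29.4 RPKM in NLS and 8.14 in DOX/E14. The other 2 higher genes were Klf4 and Tfcp2l1. The lower genes were kinases, Pim2 with 7.30 RPKM in NLS and 102 in DOX/E14 (difference −3.84, SE 0.57) and Pim1 with 34.8 RPKM in NLS and 95.7 in DOX/E14.

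FGF to ERK feedback genes split 3 and 3 among 15 tested, with a median of −0.56. Immediate early genes and the ligand were higher in NLS, Fos with 32.3 RPKM in NLS and 1.04 in DOX/E14 (difference 4.91, SE 0.63), Egr1 with 10.2 RPKM in NLS and 3.56 in DOX/E14, and Fgf4 with 105 RPKM in NLS and 47.4 in DOX/E14. Inhibitors of the pathway were lower, Spry2 with 10.4 RPKM in NLS and 103 in DOX/E14 (difference −3.34, SE 0.63), the phosphatase gene Dusp4 with 6.98 RPKM in NLS and 55.4 in DOX/E14, and Dusp6 with 28.5 RPKM in NLS and 67.5 in DOX/E14. The calls of Egr1 and Fgf4 ended with 1 RPKM added.

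Nodal and BMP signalling had 5 of 16 tested genes higher in NLS and none lower, with a median of 0.72. All 5 encode inhibitors or targets of the pathway. Id4, an inhibitor of helix-loop-helix factors, was at 12.3 RPKM in NLS and 0.676 in DOX/E14 (difference 4.15, SE 0.77). The inhibitory Smad6 was at 9.76 RPKM in NLS and 1.102 in DOX/E14, and Smad7 at 42.7 RPKM in NLS and 12.6 in DOX/E14. Lefty1, a Nodal antagonist, was at 261 RPKM in NLS and 109.5 in DOX/E14, with 489 in noDox, and its call ended with 1 RPKM added.

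In the Hedgehog and Notch list 2 of 17 were higher, 1 lower and the median was −0.32, beside 9.78% higher and 3.18% lower of all genes tested. Hhip, which sequesters Hedgehog ligands, was at 29.0 RPKM in NLS and 0.332 in DOX/E14, with 46.8 in noDox (difference 6.41, SE 0.52). Notch1 was at 22.8 RPKM in NLS and 5.89 in DOX/E14. The Hedgehog transducer Smo was lower, at 5.41 RPKM in NLS and 18.9 in DOX/E14, a call that ended with 1 RPKM added. Of 8 tested Wnt pathway targets 1 was higher, 2 were lower and 5 were not called, with a median difference of −1.24. Of the 8 values 2 lay above 0. Notum, a Wnt-inactivating enzyme, was higher with 23.3 RPKM in NLS and 2.95 in DOX/E14 (difference 2.94, SE 0.50), and Myc and Ccnd1 were lower. Axin2 (difference −2.24, SE 0.97) and Lef1 (difference −2.12, SE 3.01) did not pass.

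**Figure D3:**
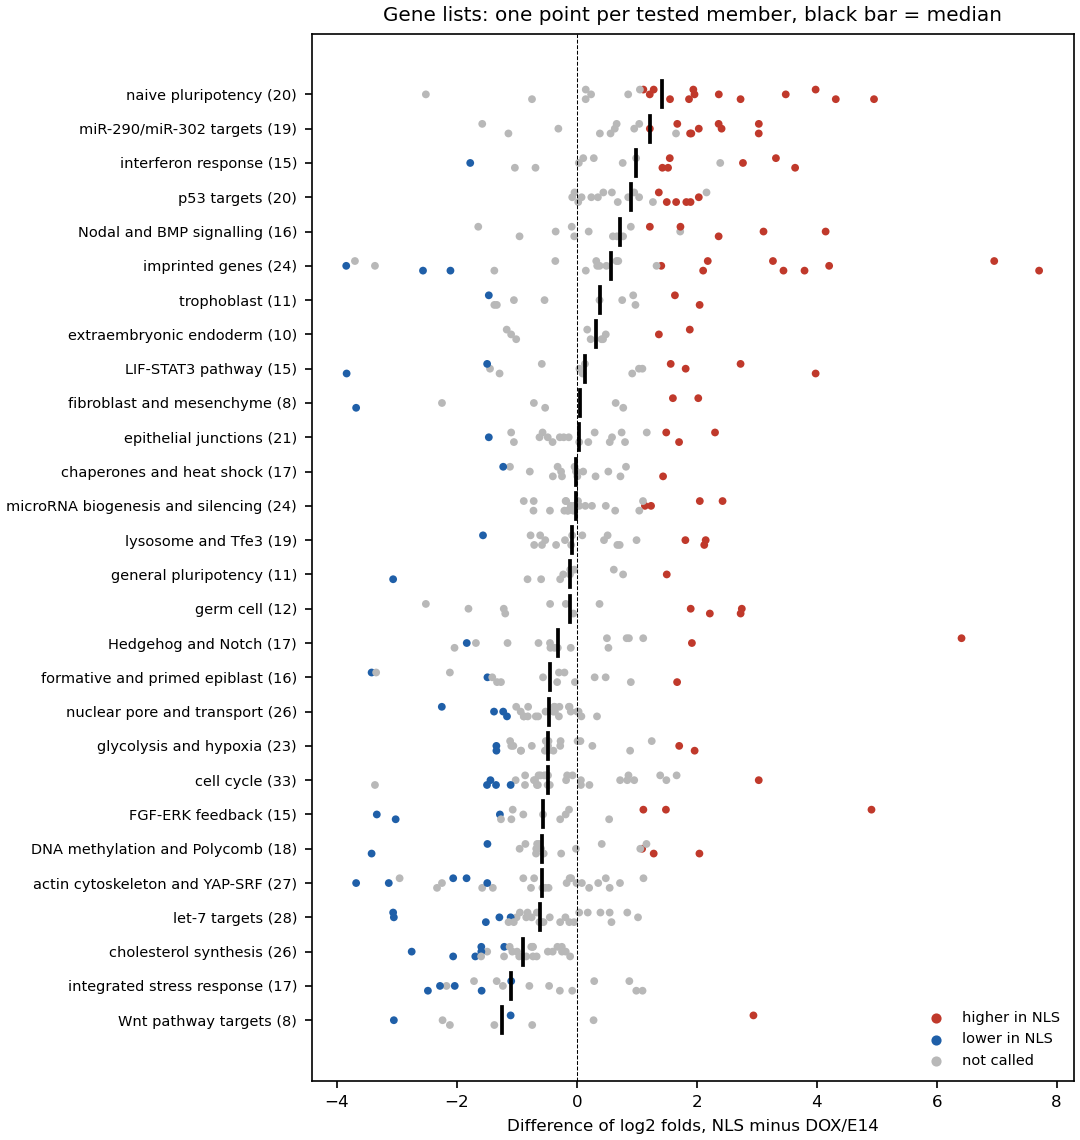
Difference of log2 folds, NLS minus DOX/E14, for every tested member (points, red called higher, blue called lower, grey not called) of the gene lists with at least 8 tested members, ordered by median (black bar), with the number tested in brackets. Naive pluripotency and miR-290/miR-302 targets lie at the top with medians of 1.42 and 1.22, and all 26 cholesterol synthesis genes lie below 0.

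Cholesterol and fatty acid synthesis had 6 of 26 genes lower, none higher and all 26 values below 0, with a median of −0.90. Scd2 and Scd1, which make monounsaturated fatty acids, had the largest differences. Scd2 was at 27.2 RPKM in NLS and 179 in DOX/E14, with 54.4 in noDox (difference −2.75, SE 0.41), and Scd1 at 4.36 RPKM in NLS and 17.8 in DOX/E14. The sterol reductase Dhcr7 was at 6.69 RPKM in NLS and 21.1 in DOX/E14. Lss, the lanosterol synthase, and Msmo1, a sterol oxidase, were also lower.

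Genes of the integrated stress response, many of them amino acid enzymes and transporters driven by ATF4, had 5 of 17 lower and none higher, with a median of −1.095. Phgdh and Psat1, which act in a row in serine synthesis, led them. Phgdh was at 12.8 RPKM in NLS and 70.1 in DOX/E14 (difference −2.48, SE 0.53), and Psat1 at 58.9 RPKM in NLS and 279 in DOX/E14 (difference −2.28, SE 0.40). The mitochondrial folate enzyme Mthfd2 was at 20.2 RPKM in NLS and 80.6 in DOX/E14. Slc7a5 and Slc3a2, the paired chains of an amino acid transporter, were also lower, and the call of Slc3a2 ended with the direct ratio.

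Glycolysis and hypoxia genes split, with 2 of 23 higher and 2 lower (median −0.48), beside 9.78% higher and 3.18% lower of all genes tested. Pfkp was at 36.3 RPKM in NLS and 9.08 in DOX/E14 and Hk1 at 20.1 RPKM in NLS and 6.0003 in DOX/E14. Ldha, lactate dehydrogenase A, was at 187 RPKM in NLS and 462 in DOX/E14, and Mif, a cytokine, at 177 RPKM in NLS and 437 in DOX/E14. Lysosomal genes had 3 of 19 higher, Lamp2 and Gaa among them, and 1 lower, which was Tfe3, a regulator of lysosomal genes, at 15.6 RPKM in NLS and 45.1 in DOX/E14 (difference −1.57, SE 0.43).

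Of 27 tested actin, YAP and SRF genes 5 were lower and none higher (median −0.57). Acta2, smooth muscle actin, was at 2.51 RPKM in NLS and 31.4 in DOX/E14, with 0.339 in noDox (difference −3.68, SE 1.24), a call that ended with 1 RPKM added. Lgals1, a galectin, was at 22.5 RPKM in NLS and 193 in DOX/E14 (difference −3.14, SE 0.53), and Tpm1, a tropomyosin, at 123 RPKM in NLS and 338 in DOX/E14. Fibroblast markers summed to 13.2 RPKM in NLS and 19.8 in DOX/E14, with 3 of 9 at 1 RPKM or more in NLS and 5 of 9 in DOX/E14. Col1a1 was at 0.490 RPKM in NLS and 7.79 in DOX/E14, Col5a1 the other way at 8.75 RPKM in NLS and 5.45 in DOX/E14, and Lum at 0 in both. Their part in these differences was not tested.

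The list of nuclear pore and transport genes had 4 of 26 lower and none higher, with a median of −0.46. Ipo5, an importin, was at 138 RPKM in NLS and 639 in DOX/E14, with 116 in noDox (difference −2.25, SE 0.46). Ranbp1, a partner of the GTPase Ran, was at 93.2 RPKM in NLS and 236 in DOX/E14. Nup210 and Cse1l were the other two, and both calls ended with 1 RPKM added.

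Among 33 cell cycle genes 4 were lower and 1 was higher (median −0.49). Ccne1, which encodes cyclin E1, was at 39.6 RPKM in NLS and 109 in DOX/E14, and Pcna, the sliding clamp of replication, at 113 RPKM in NLS and 280.3 in DOX/E14. The mitotic kinase Plk1 and Ccnd1 were also lower. Rbl2 was the one higher. Of 20 p53 targets, 6 were higher, none lower and 18 had values above 0, with a median of 0.91. Besides Ei24 they were Ak1, Btg2, Trp53inp1, Eda2r and Pmaip1. Btg2, an antiproliferative factor, was at 50.7 RPKM in NLS and 13.97 in DOX/E14 (difference 1.82, SE 0.41), and Trp53inp1 at 119.9 RPKM in NLS and 37.1 in DOX/E14.

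Interferon response genes had 6 of 15 higher in NLS and 1 lower (median 0.99), with 12 of the 15 values above 0 and levels that varied widely. Ifitm3, at 173 RPKM in NLS and 165 in DOX/E14, and B2m, at 12.5 RPKM in NLS and 24.9 in DOX/E14, did not pass. Oas1a, Oas2 and Oasl2, of the oligoadenylate synthetase family, were at 5.80, 1.98 and 2.67 RPKM in NLS against 0.567, 0.155 and 0.381 RPKM in DOX/E14, and all 3 calls ended with 1 RPKM added. Bst2, which tethers budding virions, was the one lower, at 27.3 RPKM in NLS and 91.3 in DOX/E14. Among 18 genes of DNA methylation and Polycomb, Ezh1, Tet2 and Suz12 were higher and Dnmt3b and Dnmt3a lower. Ezh1 was at 18.3 RPKM in NLS and 4.32 in DOX/E14 (difference 2.04, SE 0.43).

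Imprinted genes, expressed from 1 parental allele, held several of the largest differences, with 9 of 24 higher and 3 lower (median 0.58). Plagl1, a zinc-finger gene (chr10:13060504-13131694), was at 31.1 RPKM in NLS and 0.145 in DOX/E14, with 60.1 in noDox (difference 7.71, SE 0.81). H19, a noncoding RNA (chr7:142575529-142578143), was at 41.1 RPKM in NLS and 0.322 in DOX/E14, with 6.82 in noDox. NLS thus stood above noDox and DOX/E14 below it for H19 (difference 6.96, SE 0.86). Meg3, Rtl1 and Mirg lie in 1 imprinted domain of chromosome 12. Meg3 was at 24.7 RPKM in NLS and 1.30 in DOX/E14 and Mirg, the host of a microRNA cluster, at 9.58 RPKM in NLS and 0.673 in DOX/E14. Rtl1 was at 2.173 RPKM in NLS and 0.194 in DOX/E14, and only its call ended with 1 RPKM added. Grb10, a growth factor receptor adaptor, went the other way, with 9.53 RPKM in NLS and 133 in DOX/E14 (difference −3.85, SE 0.47).

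Lineage markers were mostly low in both groups. In neuroectoderm 2 of 6 tested genes were lower in NLS, none higher and 4 not called, and 3 of the 6 had values above 0. Tubb3 was among these 3, at 45.6 RPKM in NLS and 30.8 in DOX/E14, and did not pass. Nes, an intermediate filament of neural progenitors, was at 4.37 RPKM in NLS and 19.05 in DOX/E14, and Sox11 at 1.60 RPKM in NLS and 10.4 in DOX/E14 (difference −2.75, SE 0.64). In primitive streak and mesoderm 2 of 6 were higher, Kdr with 1.34 RPKM in NLS and 0.120 in DOX/E14 and Evx1 with 2.13 RPKM in NLS and 0.281 in DOX/E14, both lost with 1 RPKM added. Wnt3, at 1.54 RPKM in NLS and 6.76 in DOX/E14, was tested and did not pass, while the streak gene T, at 0.332 RPKM in NLS and 5.104 in DOX/E14, and Fgf8, at 0.157 RPKM in NLS and 1.54 in DOX/E14, were not tested. With at least 5 RPKM in 1 group only Bmp4 and Wnt3 remained as tested genes, neither called, and the list's median was −1.563. Definitive endoderm had 1 of 4 higher, Prdm1, with 14.4 RPKM in NLS and 2.09 in DOX/E14. Prdm1 was also among 4 of 12 germ cell genes that were higher, with Kit, Hormad1 and Dazl.

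In extraembryonic endoderm 2 of 10 were higher, the laminin genes Lama1, with 7.77 RPKM in NLS and 2.05 in DOX/E14, and Lamc1, with 122 RPKM in NLS and 45.98 in DOX/E14. Trophoblast genes gave 2 higher (Gata2 and Tead4) and 1 lower of 11. The lower one was Krt18, a keratin, at 100.3 RPKM in NLS and 270.4 in DOX/E14. Krt18 was also the one lower of 21 epithelial junction genes, in which Cldn3, Cldn4 and Dsp were higher. Of all genes tested, 9.78% were higher and 3.18% lower. Cldn4, a claudin of tight junctions, was at 269 RPKM in NLS and 80.5 in DOX/E14.

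Blood and endothelial genes gave 2 of 4 higher. Tek, an angiopoietin receptor, was at 14.5 RPKM in NLS and 1.49 in DOX/E14, with 5.34 in noDox (difference 3.24, SE 0.51), and Pecam1, also a naive stem cell marker, was at 52.1 RPKM in NLS and 13.9 in DOX/E14. The 6 defining blood and endothelial markers summed to 16.9 RPKM in NLS and 2.29 in DOX/E14, most of it Tek, and Hbb-bh1 was at 0 in both. Fibroblast and mesenchyme genes gave 2 higher (Timp3 and Fn1) and 1 lower (Acta2) of 8. Of 3 cardiac and muscle genes Ttn, the giant sarcomere protein, was higher at 10.4 RPKM in NLS and 1.97 in DOX/E14, while the 4 cardiac markers summed to 1.17 RPKM in NLS and 0.971 in DOX/E14. Neither of the 2 tested Hox genes passed, and the chaperone list had 1 higher (Hspb1) and 1 lower (Hspe1) of 17.

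The 2-cell-like state, a rare state of stem cell cultures that resembles the early cleavage embryo, was represented by 3 tested genes. Of these 2, both Zscan4 genes, were higher in NLS. The other, Eif1a, was at 56.4 RPKM in NLS and 69.6 in DOX/E14 (difference −0.34, SE 0.39) and did not pass. Zscan4a was at 13.3 RPKM in NLS and 0.174 in DOX/E14, with 1.98 in noDox (difference 6.22, SE 1.20), and Zscan4d was at 12.6 RPKM in NLS and 0.0957 in DOX/E14. Gm12794, Gm8994 and Gm8300, predicted genes, also stood among the 12 largest positive differences, with 12.9, 17.4 and 7.96 RPKM in NLS against 0.0685, 0.187 and 0.125 RPKM in DOX/E14. Zscan4 genes are a family of near-identical copies, so the split of reads among them is uncertain. GENCODE M21 lists Zscan4a as an unprocessed pseudogene. The call of Zscan4d ended with 1 RPKM added, as did those of Gm12794 and Gm8300.

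Other leading differences fell outside the lists. Fat2, an atypical cadherin, was at 7.82 RPKM in NLS and 0.0431 in DOX/E14, with 18.2 in noDox (difference 7.46, SE 0.86). Msln, which encodes mesothelin, was at 74.2 RPKM in NLS and 0.861 in DOX/E14 (difference 6.39, SE 0.59). C1qtnf9 (difference 7.13, SE 2.00) and the protease gene Tmprss3 (difference 6.36, SE 1.54) lost their calls with the SE implied by the p-values. Mid1, an X-linked ubiquitin ligase, was at 1.46 RPKM in NLS and 43.4 in DOX/E14, with 0.219 in noDox (difference −4.93, SE 1.46), a call that ended with 1 RPKM added, and Dbn1, the actin-binding drebrin, at 2.03 RPKM in NLS and 21.7 in DOX/E14. Mid1ip1 and Pla2g12a were also among the 12 largest negative differences.

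At the top of the expression range, the 6 highest members called higher were Dppa5a, Spp1, Hspb1, Lefty1, Ifitm1 and Col18a1. Dppa5a, a stem cell RNA-binding protein, was at 1939 RPKM in NLS and 645 in DOX/E14, with 2555 in noDox (difference 1.55, SE 0.44), and Spp1, osteopontin, at 294 RPKM in NLS and 74.5 in DOX/E14. The 6 highest called lower were Rps26, Eif5a, Ipo5, Ldha, Mif and Cct6a. Eif5a, a translation factor, was at 321 RPKM in NLS and 789 in DOX/E14 (difference −1.33, SE 0.41). Rps26 has processed copies in the genome, so its level is uncertain. The call of Col18a1 ended when differences were centred on their median, and that of Cct6a with the direct ratio.

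Short RNA genes made up 301 members, of which 105 were tested, 6 called higher and 4 lower. Mir18b and Mir692-1 had differences of −4.06 (SE 0.74) and −5.14 (SE 0.85) and lost their calls with the SE implied by the p-values. Of the 248 members listed at 0 in 1 group, 166 were short RNA genes. Among the highest were Mir7663, with 1616 RPKM in NLS and 0 in DOX/E14, and Snord110, with 0 RPKM in NLS and 5072 in DOX/E14. The preparation was not one for small RNA, so such values need not be mature microRNA or snoRNA, and reads of host transcripts cannot be told apart.

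Chromosomes with at least 20 tested members are given here, which leaves out Y with 1. Their medians lay between −0.13 on chromosome 2 and 0.14 on chromosomes 6 and 12, and the X chromosome had a median of 0.04 over 399 genes. The share called was 17.4% on chromosome 12 at the top and 11.03% on chromosome 19 at the bottom, beside 13.0% over all genes tested.

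**Figure D4:**
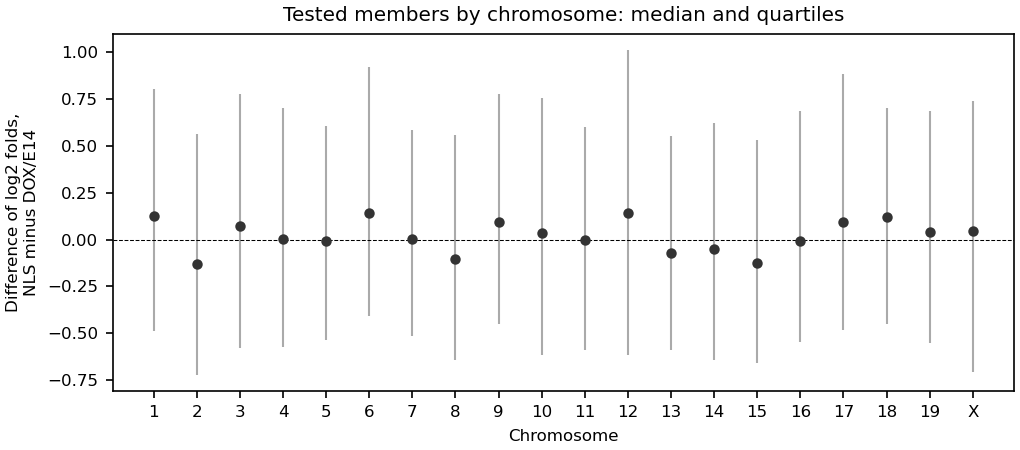
Median difference of log2 folds, NLS minus DOX/E14 (points), with the lower and upper quartile (bars), of the tested members on each chromosome with at least 20 tested. All medians lie between −0.13 and 0.14, and every pair of quartiles spans 0.

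Sex-linked genes set the second group apart. Ddx3y, a Y-linked helicase gene, was at 0.311 RPKM in NLS and 11.1 in DOX/E14 and was listed at 0 in noDox. Uty, a Y-linked demethylase gene, was at 0.168 RPKM in NLS and 7.66 in DOX/E14, and Eif2s3y, a translation factor gene, at 0.492 RPKM in NLS and 24.5 in DOX/E14. None was tested in both tables. In noDox Uty was listed at 0 and Eif2s3y at 0.0348 RPKM. DOX is labelled as the same knockout as noDox, so these Y-linked levels, like that of Ago1, go against the label DOX. Xist, the RNA that coats the inactive X chromosome, was at 5.30 RPKM in NLS and 1.21 in DOX/E14, with 3.75 in noDox (difference 2.10, SE 0.56), a call that ended with 1 RPKM added, and its antisense partner Tsix at 9.15 RPKM in NLS and 2.36 in DOX/E14. How strand was used in counting is not given in the sources used here, so reads of these 2 overlapping genes cannot be told apart. The groups thus differ in Y-linked RNA as well as in the labelled Argonaute, and differences between lines and differences of Argonaute cannot be told apart.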

How the data were processed

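RNA of whole cells was sequenced after depletion of ribosomal RNA with a directional kit, per the labels' protocols. The submitters' processing notes name bcl2fastq 2.17.1, TopHat, Cuffdiff and mm10. The annotation and the use of strand are not given in the sources used here. The authors deposited 1 RPKM value per group in each comparison. Per the file headers each comparison also has a signed test statistic, which is a score. A p-value and a q-value are deposited as well. The deposited summary table was not used.

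Log2 folds were computed from RPKM with no pseudocount, and the size of each fold divided by that of its statistic gave its SE. Judged by the deposited p-values, z would be a median of 1.42 times the statistic for NLS and 1.41 times for DOX/E14, so SEs from the p-values would be smaller. Squared SEs were added to get the variance of the difference, noDox included even though it drops out of the difference, and p came from the normal distribution, two-sided, with Benjamini-Hochberg adjustment. Only calls are printed, without a p for single genes. Between the tables noDox differed by a ratio of 1.03, NLS table over DOX/E14 table. Read counts were not used here and depth is unknown: among 3348 untested low genes the most frequent ratio of NLS to DOX/E14 recurred in 31. With pooled values no replicate spread could be computed, and whether the libraries come from separate cultures is not given. Values of 27 genes whose symbol had turned into a date stayed under that date.

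Members, lists and tests were chosen with earlier results of these data known. Genes named in the text were taken from the 4 Argonautes, the 12 largest called differences in each direction with at least 5 RPKM in 1 group, the 6 most highly expressed called genes in each direction, up to 6 called genes per list, the 6 highest genes listed at 0 in the other group, and sex-linked genes. Genes named as not called or not tested, Col1a1, Col5a1, Lum and Hbb-bh1 were picked after their values were seen. Y-linked genes and replication-dependent histones had 0 tested members. A few genes that the rule takes in are not reported here. Alternatives are given in the closing section. Python 3.11.15, NumPy 2.4.6, pandas 2.3.3, SciPy 1.17.1 and Matplotlib 3.10.9 were used. Positions are those of GENCODE M21 on GRCm38, the build of mm10.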

Additional observations from a re-analysis of the deposited data

Results flagged for a closer look

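The log2 folds over noDox of NLS and of DOX/E14 differed by the test of the difference in 1544 genes. Among them 77 genes had folds of opposite sign that each passed q < 0.05 in its own deposited table. Of these 68 were higher in NLS, beside 1165 of all 1544 calls. The 8 with the largest differences were all above noDox in NLS and below it in DOX/E14. H19 differed by 6.96, Zscan4a by 6.22 and Fos by 4.91, with levels given above. Gm8994 differed by 6.50, with 17.4 RPKM in NLS and 0.187 in DOX/E14, and 4.08 in noDox. Galnt6, an enzyme of mucin-type glycosylation, differed by 5.78, with 25.6 RPKM in NLS and 0.455 in DOX/E14, and 15.8 in noDox. Mmrn2, an endothelial matrix protein gene, differed by 4.93, with 40.5 RPKM in NLS and 1.30 in DOX/E14, and 17.5 in noDox. The class II antigen gene H2-Eb1 differed by 4.68, with 6.38 RPKM in NLS and 0.243 in DOX/E14, and Mst1, which encodes a hepatocyte growth factor-like protein, by 4.64, with 7.25 RPKM in NLS and 0.283 in DOX/E14. The 8 were picked by size of difference, both folds share noDox, and the calls of H2-Eb1 and Mst1 ended with 1 RPKM added.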

How the results depend on the processing

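The 1544 calls (1165 higher and 379 lower in NLS) became 2843 (1768 and 1075) with the SE implied by the p-values, 3609 (2184 and 1425) with each SE divided by the square root of 2, 889 (654 and 235) with 1 RPKM added, 887 (727 and 160) at an adjusted p under 0.01 and 349 (321 and 28) with Bonferroni adjustment. Calls shared with the reported ones all kept their sign. Except for 1 RPKM added, these settings use the same differences, so the sign could not change. Under the direct ratio of NLS to DOX/E14, the centred difference, 0.1 RPKM added, a difference of at least 1, other RPKM filters or leaving out short RNA genes, the counts stayed within 1.5 times.

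Of the named genes none reversed, which the settings used could hardly bring about, since they keep, slightly shift or shrink the differences. Adding 1 RPKM ended 42 calls, among them, besides those named above, Dazl, Gata2, Suz12, Pmaip1, Tap1, Msmo1, Tpm2, Ccnd1, Slc3a2, Hspe1, Pfkp, Cnot6l, Rps26, Cct6a, Col18a1, C1qtnf9, Tmprss3 and Pla2g12a. The direct ratio also ended that of Hspe1, and 0.1 RPKM added ended 6, among them those of Ccnd1, Cct6a, Cnot6l, Col18a1 and Evx1. The SE implied by p ended those of C1qtnf9, Gm12794, Tmprss3, Mir18b and Mir692-1. This SE added calls for Rlim (−0.99) and Tsix (1.92).

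Some medians changed sign. With at least 5 RPKM in 1 group, primitive streak and mesoderm became −1.563, trophoblast −0.3363, cardiac and muscle 2.356, Hedgehog and Notch 0.5009, chromosome 18 −0.008683, chromosome 19 −0.09672 and chromosome X −0.1121. With at least 1 RPKM in both groups, a filter chosen after seeing the data, primitive streak and mesoderm became −0.7478, trophoblast −0.08092 and 2-cell-like −0.3416. The cardiac and muscle value was that of Ttn alone and the 2-cell-like value that of Eif1a alone. At 5 RPKM primitive streak and mesoderm held only Bmp4 and Wnt3 as tested genes, neither called. For the other medians the cause was not tested.

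No paired analysis was possible because each group has 1 pooled value, and leaving out a library was not an option for the same reason. Low RPKM limits the differences of genes near 1 RPKM, where 274 of the genes called higher and 3 of those called lower stood under 1 RPKM in 1 group.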
